A study of Danaus plexippus with 36 samples.

Results

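A set of 122 genes of the monarch butterfly (Danaus plexippus) stood far lower in the legs than in the antennae and the proboscis, out of 15130 gene models counted. They were chosen by their measured levels. Counts were scaled to a library total of 1000000 (CPM), averaged over the libraries of a tissue within each of 2 batches, and 0.1 CPM was added to each mean. A gene was taken when its antennal and proboscis means both reached 5 CPM and at least 4 times the leg mean in each batch, and when the antennal and proboscis means over all libraries lay within less than 8-fold of each other. The levels of the 3 tissues are therefore given below as a description, without a test.

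The antennae carry most of the olfactory sensilla of a butterfly, the hair-like organs whose neurons detect volatile compounds. The proboscis is the coiled feeding tube formed from the mouthparts, and it bears taste hairs and takes up nectar. The legs are walking organs rich in muscle, and their tarsi hold contact chemoreceptors with which females taste a host plant before they lay eggs. The study compared the 3 tissues and the sexes with an interest in chemosensory perception.

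The animals were 12 field-caught adults, 6 gravid females and 6 males. Females 18, 25 and 27 and males 13, 15 and 20 formed batch 1, and females 1, 3 and 11 and males 2, 12 and 16 formed batch 2. The labels give the batch by number only, and no treatment, age or strain. Each animal gave antennae, legs and proboscis. Of 36 libraries 35 were analysed, namely 11 antennal, 12 leg and 12 proboscis libraries, since values for the antennae of male 2 were not analysed here. Male 2 thus enters the leg and proboscis means but not the antennal means, and ratios within animals that involve antennae rest on 11 animals.

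The total count per library ran from 621625 to 24739593 in antennae, from 11739458 to 116578024 in legs and from 1915361 to 53662054 in proboscis. At these depths 1 count was worth 1.61 CPM in the shallowest antennal library (female 11) and 0.0852 CPM in the shallowest leg library (male 15). Leg depth moved with batch, at 11739458 to 15189390 in batch 1 and 35632691 to 116578024 in batch 2. The identifiers, which begin with DPOGS, matched 0 entries of the gene name table used, and the deposited counts do not pair them with names. No member can therefore be given a function, a family or a place in the genome, and the markers of the 3 tissues could not be looked up. As a check of the tissue labels, each library was correlated with the mean of the other libraries of each tissue, over 11804 genes with enough counts to test. The labelled tissue was nearest in all libraries but 2. Both were proboscis libraries: that of male 2 had r = 0.846 with legs and 0.794 with proboscis, and that of female 1 had 0.898 and 0.893. The main results that rest on proboscis levels are given with and without these 2 libraries. Bulk tissue cannot tell fewer cells of a type from less RNA per cell, in any value below.

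Summed over the 122 genes, the level was 24179 ± 6122 CPM in antennae (SD, n = 11), 12061 ± 3480 CPM in proboscis (n = 12) and 1344 ± 468 CPM in legs (n = 12). That is 2.42% of all counts in antennae, 1.21% in proboscis and 0.134% in legs. The lowest antennal library, female 3 at 16181 CPM, and the lowest proboscis library, female 27 at 4747 CPM, both stood above the highest leg library, male 16 at 2101 CPM. Within animals, the summed antennal level was 11.7 to 29.2 times the leg level, with a median of 16.96 over 11 animals. The summed proboscis level was 3.23 to 22.9 times the leg level, with a median of 8.21 over 12 animals, and also over the 10 without male 2 and female 1. The smallest of these proboscis ratios belonged to female 27, whose proboscis sum was the lowest of its tissue, and the largest to male 2, whose leg sum of 575 CPM was the lowest of its tissue. Female 3 came next to male 2, at 21.2 times. Without the proboscis libraries of male 2 and female 1 the proboscis sum was 12316 ± 3619 CPM, over the same range.

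**Figure D1:**
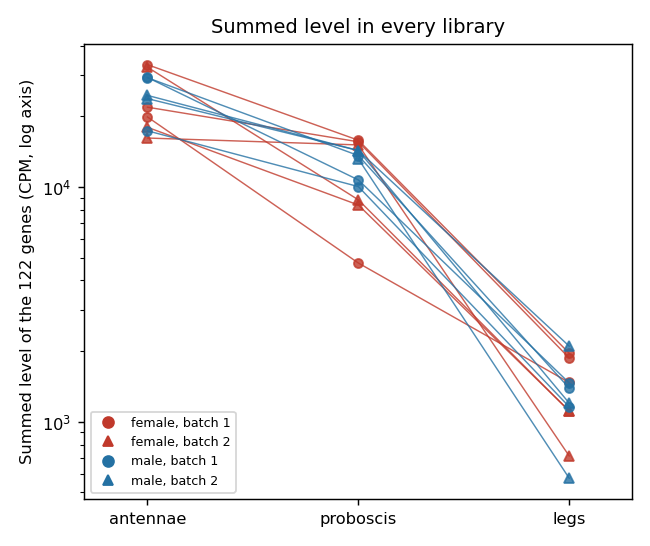
Summed level of the 122 genes in each library, in CPM on a log axis, by tissue; a line joins the tissues of 1 animal, colour gives the sex and the symbol the batch. All 12 leg libraries, at 575 to 2101 CPM, lie below all 11 antennal and all 12 proboscis libraries.

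A small number of genes made up much of these sums. The 3 most abundant members held 36.3% of the summed level in antennae, 40.5% in proboscis and 39.1% in legs, and they were not the same genes in each tissue. A total of 8 members was enough for 50% of the sum in antennae, and 6 in proboscis and in legs. Member means ran from 5.78 to 4912 CPM in antennae (median 64.6), from 5.16 to 2366 CPM in proboscis (median 27.8) and from 0.0487 to 311 CPM in legs (median 2.27). CPM is not divided by gene length, so these levels rank counts and not molecules between genes.

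DPOGS215419 was the most abundant member, and the 15th most counted of all genes in antennae. Its antennal level was 812 CPM at the lowest, 3798 at the median and 10810 at the highest. In proboscis it ran from 502 over a median of 1710 to 3253 CPM, and in legs from 97.2 over a median of 257 to 998 CPM. The leg range overlapped both others: male 16 had more in its legs than female 3 had in its antennae, and more than male 2, female 25 and female 27 had in their proboscis. The mean was 15.8 times the leg mean in antennae and 5.97 times in proboscis, and the gene ranked 436th in legs, the highest rank of any member there. A gene can thus belong to the set and still be plainly counted in legs.

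DPOGS201847 was the next most abundant. It had 1054 CPM in its lowest antennal library, 2549 at the median and 4223 in its highest. The legs ran from 16.1 CPM in male 2 over a median of 138 to 201 CPM in male 20, below every antennal library. In proboscis it lay between 238 and 1395 CPM in 11 libraries and at 76.6 CPM in male 2, the only proboscis library inside the leg range. Male 2 was thus the lowest animal in both tissues that were measured in it.

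Single members ranged more widely in their ratios than in direction. The antennal mean was 5.12 to 1461 times the leg mean, with a median of 20.1. The proboscis mean was 4.09 to 3224 times the leg mean, with a median of 7.60, or 8.24 without the proboscis libraries of male 2 and female 1. Over the 11804 genes tested the medians were 1.62 and 1.15. Taking for each member the smaller of its ratios over legs, 81 members lay below 10, 26 between 10 and 30, and 15 at 30 or above, of which 7 reached 100. Most of the set thus lay nearer to the threshold than to its upper end. On the log2 scale the members' median was 4.33 for antennae over legs, against 0.70 for the genes tested. With TMM library sizes (trimmed mean of M values), which equalise the bulk of the genes, it was 3.65 against −0.05.

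**Figure D2:**
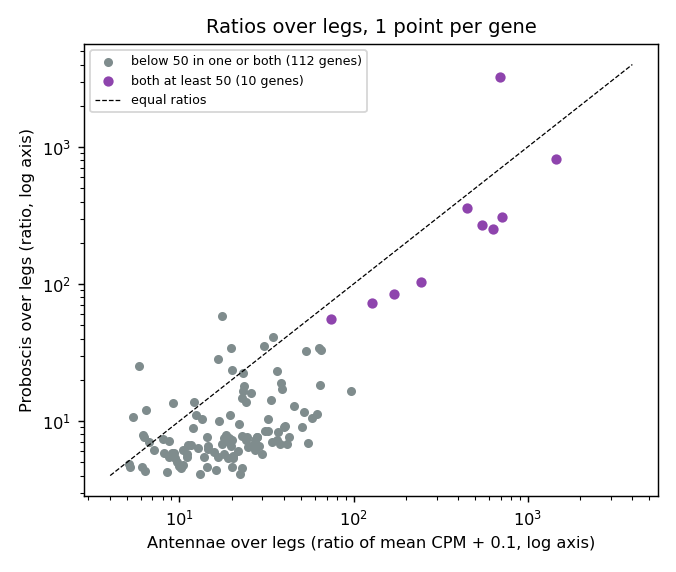
Ratio of the antennal to the leg mean (x) and of the proboscis to the leg mean (y), each mean in CPM plus 0.1, on log axes, with 1 point per gene; the dashed line marks equal ratios. Most points lie below the line, and 10 genes with both ratios at 50 or above stand apart at the upper right.

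The threshold cut through a continuous range. In the smallest of its 4 ratios over legs (2 tissues in 2 batches), 39 members lay between 4 and 5, and 88 genes that met the other conditions lay between 3 and 4. The members nearest the threshold were DPOGS214072 and DPOGS202718, at 4.01 each. The nearest genes outside it were DPOGS205995 and DPOGS210886, at 3.97 each. DPOGS214072 shows how the batches enter: its leg mean was 30.7 CPM in batch 1 and 7.11 CPM in batch 2, while its antennal means were 181 and 163 CPM. Another 5 genes met all else but exceeded the 8-fold window, all of them higher in antennae than in proboscis.

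Not every animal showed the pattern for every member. The antennae were above the legs in all 11 animals for 83 members, and the proboscis above the legs in all 12 animals for 94, in 11 animals for 16 and in fewer for 12. In the 10 animals other than male 2 and female 1, the proboscis was above the legs in all for 98 members. Every antennal library exceeded every leg library for 61 members, every proboscis library did so for 30, and both held for 20. Over the genes tested these shares were 5.3%, 0.779% and 0.305%, and since the rule used these contrasts nothing is read from the counts. Without the proboscis libraries of male 2 and female 1, the proboscis count was 55, and the share of the genes tested rose to 1.67%. The count for both was then 40, and its share over the genes tested is not given here. By animal, the antennae were above the legs for between 101 members (male 20) and 122 members (females 3 and 25). For all these counts within animals the shares over the genes tested are not given here, and nothing is read from their size.

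Low in legs did not mean absent from legs. Of the 122 members, 98 had counts in all 12 leg libraries and 24 were at 0 in at least 1 of them, at most in 7. The leg mean was below 1 CPM for 32 members, from 1 to below 10 CPM for 64 and at least 10 CPM for 26. The total over the 12 leg libraries ran from 18 to 132488 counts per member, with a median of 1065. In 11 members over 50% of these counts came from 1 library, 10 times that of male 12, which also held 25.1% of all leg counts. In CPM, which removes depth, the same was true of 2 members.

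At the far end, 10 members had both ratios at 50 or above; they were singled out after their values were seen. Their summed leg level was 0.329 to 4.81 CPM, from 18 to 420 counts per member over the 12 leg libraries. DPOGS215468, whose smaller ratio was the largest of any member, was at 0 in 5 leg libraries and reached 0.661 CPM at most, in male 12. In antennae it ran from 20.4 CPM in male 20 over a median of 213 to 717 CPM in female 3. In proboscis it ran from 8.35 CPM in female 11 over a median of 134 to 532 CPM in male 2. Both ranges were clear of the legs, although the libraries of each tissue were spread widely.

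DPOGS205671 had the next largest ratio and was the most abundant member in proboscis, with 19.6% of the members' summed level there and rank 48 among all genes. Its proboscis level was 178 CPM in female 27 at the lowest, 1603 at the median and 7207 in female 3 at the highest. In antennae it ran from 1.09 CPM in male 20 over a median of 174 to 1763 CPM in male 16. The legs were at 0 in males 13, 15 and 20 and in female 18, at up to 0.0705 CPM in females 25 and 27, and between 0.286 and 2.40 CPM in the 6 animals of batch 2. The antennae of male 20 thus lay inside the leg range, and the legs of batch 2 were all above those of batch 1.

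The 10 genes varied strongly between animals. Their summed antennal level was 70.0 CPM in male 20, 164 CPM in female 11 and 295 CPM in male 15, against 3050 CPM in female 25 and 4675 CPM in male 16. Their summed proboscis level was 335 CPM in male 15, 357 CPM in female 11, 377 CPM in male 20 and 386 CPM in female 27, against 7844 CPM in female 3 and 8198 CPM in male 2. The 3 animals lowest in antennae were thus also the 3 lowest in proboscis. Both sexes stood at each end of both ranges, and both batches did except at the upper end in proboscis, where female 3 and male 2 were both of batch 2. Most of these 2 proboscis sums was DPOGS205671 alone. Without this gene the proboscis sum was 637 CPM in female 3 and 1937 CPM in male 2. Female 25, of batch 1, at 1043 CPM and male 16, of batch 2, at 718 CPM then stood between them. The antennal totals of the 3 animals lowest in antennae were 621625 in female 11, 3684200 in male 20 and 5684200 in male 15. They were 2244393 in male 16, which had the highest antennal sum, and 2116085 in male 12, at 1245 CPM. A relation of depth to these sums was not tested.

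**Figure D3:**
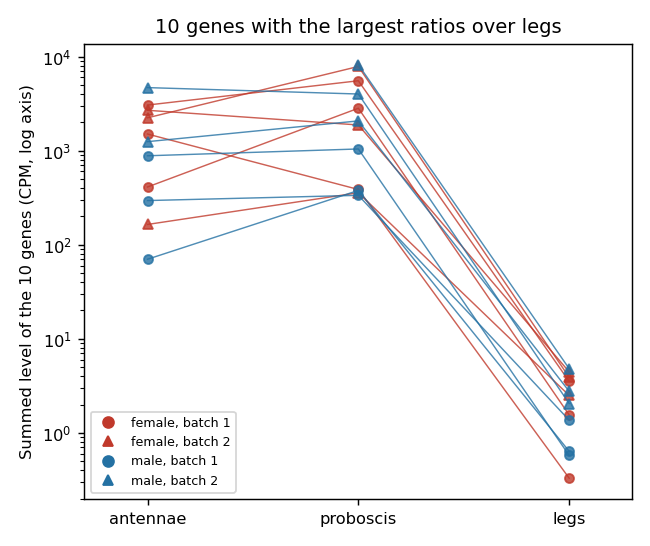
Summed level of the 10 genes whose antennal and proboscis means were both at least 50 times the leg mean, in CPM on a log axis, by tissue, with a line for each animal. Antennal sums span 70.0 to 4675 CPM and proboscis sums 335 to 8198 CPM, while the legs stay at 0.329 to 4.81 CPM. DPOGS205671 makes up most of the highest proboscis sums.

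Between the antennae and the proboscis, the antennae were usually higher. The antennal mean was above the proboscis mean for 107 of 122 members, against 71.5% of the genes tested, and the median ratio was 2.17. It was at least 2 times the proboscis mean for 68 members, the reverse held for 3, and 51 lay within 2-fold. The lead of the antennae depends on scaling: the members' median log2 ratio was 1.12 against 0.46 for the genes tested, and with TMM-scaled library sizes 0.58 against −0.03. The summed level was 1.07 to 4.19 times as high in antennae as in proboscis, with a median of 2.10 over 11 animals. Without the proboscis libraries of male 2 and female 1, the count of 107 was the same and the median ratio was 2.08.

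At the antennal side stood DPOGS214627 and DPOGS209027. DPOGS214627 had 447 to 1568 CPM in antennae (median 827), 29.4 to 276 CPM in proboscis (median 97.6) and 4.89 to 30.5 CPM in legs (median 15.1). Antennae and proboscis did not overlap, and only the proboscis of male 2 fell inside the leg range. Its antennal mean was 7.88 times the proboscis mean, just inside the 8-fold window. DPOGS209027 had a mean of 97.2 ± 39.1 CPM in antennae, 16.0 ± 11.2 CPM in proboscis and 2.25 ± 1.83 CPM in legs (SD, n = 11, 12 and 12). Its leg level was 1.82 to 4.74 CPM in batch 1 and 0.0788 to 1.96 CPM in batch 2.

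At the proboscis side stood DPOGS205671, at 4.62 times its antennal mean, and DPOGS215828. DPOGS215828 had 4.31 to 43.3 CPM in proboscis (median 23.6), 0 to 13.8 CPM in antennae (median 5.44) and 0.308 to 1.43 CPM in legs (median 0.990). The proboscis was above the antennae in all 11 animals, which held for no other member, whereas the reverse held for 27 members. The like shares over the genes tested are not given here, so nothing is read from these counts. The proboscis was clear of the legs in every library. In antennae, female 18 was at 0 and so below its own legs.

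**Figure D4:**
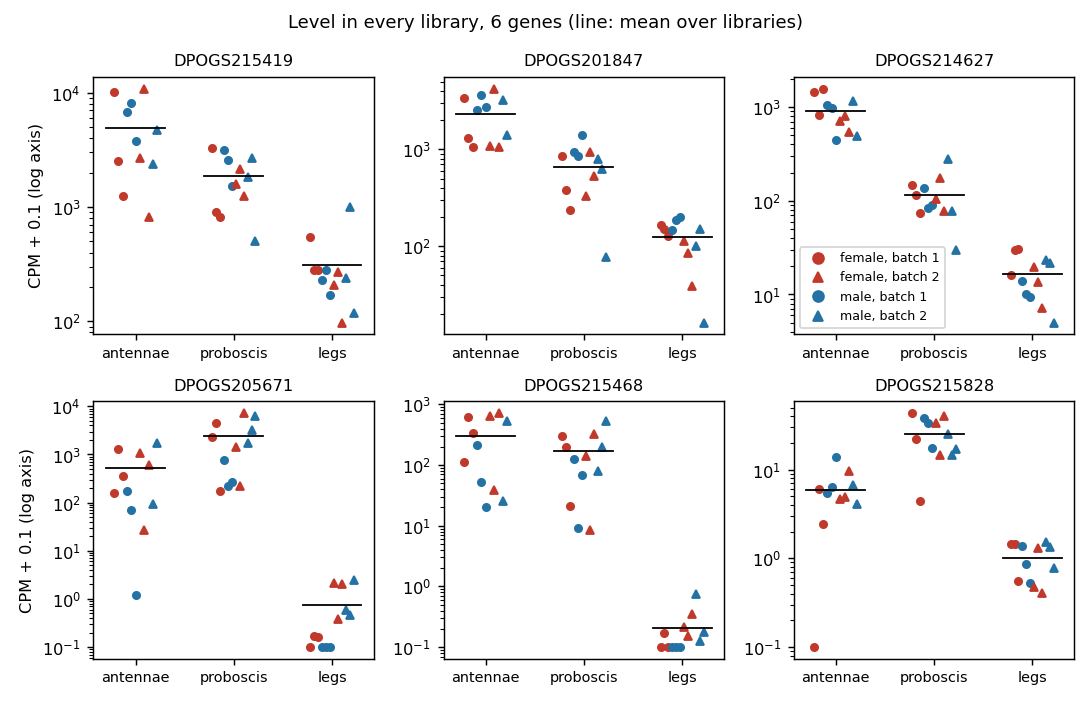
Level of 6 genes in every library, in CPM plus 0.1 on a log axis, by tissue, with colour for sex, symbol for batch and a line at the tissue mean. DPOGS215419 and DPOGS201847 are the most abundant, DPOGS214627 and DPOGS215828 lean to antennae and to proboscis, and DPOGS205671 and DPOGS215468 are near 0 in legs.

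The rule averaged over the sexes, so a difference between females and males could be tested. Each tissue was fitted alone with edgeR's quasi-likelihood test, with sex and batch as terms, and Benjamini-Hochberg adjustment ran over all genes tested. The summed level was 23606 ± 7406 CPM in female and 24867 ± 4906 CPM in male antennae (n = 6 and 5), 11420 ± 4714 and 12701 ± 1855 CPM in proboscis (n = 6 and 6), and 1373 ± 484 and 1315 ± 496 CPM in legs (n = 6 and 6). Without the proboscis libraries of male 2 and female 1 the proboscis values were 12026 ± 5002 and 12606 ± 2057 CPM (n = 5 and 5). The sexes overlapped in all 3 tissues.

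No member was called between the sexes at an adjusted p below 0.05: 0 of 122 in antennae, 0 of 109 in legs and 0 of 121 in proboscis. The background was as sparse, with 0% of 10037 genes called in antennae, 0.0283% of 10598 in legs and 0% of 10416 in proboscis. At an unadjusted p below 0.05 there were 5 members and 231 genes in antennae, 3 members and 670 genes in legs, and 1 member and 94 genes in proboscis. DESeq2 called 9, 62 and 0 genes and again 0 members. Without the 2 proboscis libraries edgeR called 0 of 120 members there. The count filter left 13 members untested in legs and 1 in proboscis; without the filter all 122 were tested in each tissue and 0 were called.

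The smallest unadjusted p among members fell on DPOGS213996 in antennae. Its level was 2.06, 7.60, 8.91, 21.6, 38.6 and 1030 CPM in the 6 females and 0, 0, 0.446, 13.0 and 39.4 CPM in the 5 males. The high value belonged to female 27 alone, and the other 5 females overlapped the males. The fitted log2 difference was 4.51 ± 1.55 (SE), with an adjusted p of 0.999 from edgeR, and it was 2.09 without female 27.

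In legs it fell on DPOGS203698, at 0.461 to 4.58 CPM in females and 0.158 to 2.32 CPM in males, where male 12 stood above the other 5. The log2 difference was 1.86 ± 0.73 (SE), with an adjusted p of 0.698 from edgeR, and it was 2.79 without male 12 and 1.62 without female 25, with adjusted p-values of 0.438 and 1.00. In proboscis it fell on DPOGS203001, at 4.89 to 16.1 CPM in females and 2.76 to 8.87 CPM in males. Here the log2 difference was 0.83 ± 0.38 (SE), with an adjusted p of 1.00 from edgeR, and it was 0.66 without the proboscis libraries of male 2 and female 1. All 3 genes overlapped between the sexes.

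Whether the leg deficit itself differed between the sexes was tested in 1 edgeR fit over all 35 libraries, as the leg level minus the mean of antennae and proboscis in females, minus the same in males. Of 122 members 0 were called, as were 0% of 11804 genes. At an unadjusted p below 0.05 there were 0 members and 298 genes, and DESeq2 called 0 genes. Without the 2 proboscis libraries edgeR again called 0 members. The members' median log2 difference was 0.04. DPOGS203698 again had the smallest p among members, with a log2 difference of 1.56 ± 0.97 (SE) and an adjusted p of 1 from edgeR.

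The batches differed in legs. The members' summed leg level was 1552 ± 304 CPM in batch 1 and 1136 ± 534 CPM in batch 2 (n = 6 each), and the ranges overlapped, at 1159 to 1960 and 575 to 2101 CPM. Of 109 members tested in legs 35 were called between the batches by edgeR, which is 32.1% against 44.8% of 10598 genes. Only 3 of them were higher in batch 2, where 22.3% of all genes tested were, and 32 were lower, where 22.6% of all genes were. The members' median log2 difference was −0.55, while that of all genes tested was 0.15. The rule bounds this comparison, because each batch had to meet the 4-fold condition by itself. Depth in legs also differed between the batches without overlap, and its part in these calls was not tested.

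DPOGS209476 was the member with the smallest adjusted p. Its leg level was 49.3 to 107 CPM in batch 1 and 13.4 to 29.02 CPM in batch 2, with no overlap, and the log2 difference was −2.11 ± 0.27 (SE), with an adjusted p of 9.7e-05 from edgeR. Its antennal mean was 749 ± 329 CPM in batch 1 and 614 ± 422 CPM in batch 2, where male 2 had no antennal library. The antennal libraries of the batches overlapped. DPOGS211471 followed, at 5.60 to 9.03 CPM in batch 1 and 0.504 to 1.93 CPM in batch 2, with a log2 difference of −2.61 ± 0.36 (SE) and an adjusted p of 0.00017 from edgeR. Both calls held with each animal left out.

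DPOGS202399 and DPOGS200907 had the smallest adjusted p among members higher in batch 2 legs. DPOGS202399 had 0.635 to 2.63 CPM in batch 1 and 0.784 to 14.3 CPM in batch 2, with a log2 difference of 1.66 ± 0.60 (SE) and an adjusted p of 0.0398 from edgeR. Its call was lost without male 2, 13, 15 or 20 or female 11, 25 or 27, at adjusted p-values of 0.0661 to 0.218, and the difference was 0.99 without female 11. DPOGS200907 had 0 to 0.775 CPM in batch 1 and 0.336 to 2.22 CPM in batch 2, with a log2 difference of 1.92 ± 0.72 (SE) and an adjusted p of 0.0447 from edgeR. Its call was lost without male 13, 15 or 20 or female 18 or 27, at adjusted p-values of 0.0626 to 0.0857. The ranges of the batches overlapped in both genes.

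**Figure D5:**
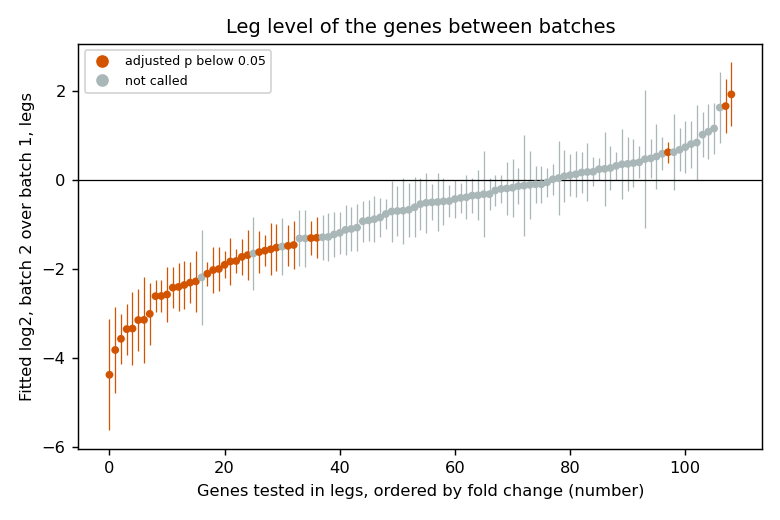
Fitted log2 difference in legs between batch 2 and batch 1 for the 109 genes of the set that were tested, in order of size, with the standard error as a line; orange marks an adjusted p below 0.05. Of the 35 called genes 32 lie below 0.

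In antennae 0 of 122 members were called between the batches, against 0.00996% of 10037 genes, and in proboscis 0 of 121, against 0% of 10416. At an unadjusted p below 0.05 there were 7 members and 754 genes in antennae, and 4 members and 417 genes in proboscis. DESeq2 called 98 genes in antennae, 1 of them a member, and 14 in proboscis, 0 of them members. Without the 2 proboscis libraries edgeR called 0 of 120 members there. The summed level was 25161 ± 6297 and 23001 ± 6400 CPM in antennae of batch 1 and batch 2, and 11764 ± 4195 and 12358 ± 2973 CPM in proboscis, where batch 2 had 13145 ± 2904 CPM (n = 4) without the 2 libraries. These differences were smaller than the spread within a batch.

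The legs of male 2 held the lowest leg value of the 12 libraries for 38.5% of members, against 17.2% of the genes tested. Its proboscis held the lowest proboscis value for 33.6% of members, against 20.95% of the genes tested, although it had the highest sum of the 10 genes with both ratios at 50 or above. The antennae of male 20 held the lowest antennal value for 36.1% of members, against 29.1%, and the proboscis of female 27 for 18.0%, against 7.41%. The legs of female 25 held the highest leg value for 30.3% of members, against 21.9%. Other libraries went the other way. The proboscis of female 11 was lowest for 22.95% of members, against 42.7%, and the legs of male 20 for 22.95%, against 34.4%. The antennae of male 12 were lowest for 9.02%, against 38.0%, and those of female 11 for 16.4%, against 34.4%. The proboscis of male 2 held the highest proboscis value for 13.9% of members, against 31.7%.

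An animal that was high for a member in 1 tissue tended to be high for it in another. For each member, deviations from the mean of its tissue and batch, on the log2(CPM + 0.1) scale, were correlated between tissues of the same animals. The median r over members was 0.522 for antennae and proboscis (11 animals), 0.436 for legs and proboscis (12 animals) and 0.336 for antennae and legs (11 animals). Over the genes tested the medians were 0.276, 0.352 and 0.168. Without the proboscis libraries of male 2 and female 1, the members' medians were 0.516 for antennae and proboscis and 0.364 for legs and proboscis, against 0.240 and 0.351 over the genes tested. For legs and proboscis the members then lay close to the genes tested. These are descriptions. The means of the batches were removed, but tissues of 1 animal share their handling. Members had to reach a mean of 5 CPM in antennae and proboscis, which the genes tested did not. The part of this floor in the medians was not tested.

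Within a tissue the members did not vary as 1 block. Over all 7381 pairs of members the median r of such deviations was 0.094 in antennae, 0.178 in proboscis (0.186 without the libraries of male 2 and female 1) and 0.219 in legs. The like medians over pairs of the genes tested are not given here, so these values are not compared with other genes. Against DPOGS215419, the most abundant member, 27 of the other 121 members had r above 0.5 in antennae and 14 had r below −0.5. In proboscis the counts were 43 and 6, or 30 and 2 without the libraries of male 2 and female 1. Of the genes tested, 5.52% were above 0.5 and 16.7% below −0.5 in antennae, and 11.1% and 15.5% in proboscis. Of the 10 genes with both ratios at 50 or above, 0 were above 0.5 with it in either tissue, or 1 in proboscis without those 2 libraries. With DPOGS215468, which is 1 of those 10, the other 9 all had r above 0.5 in antennae and 4 of them in proboscis (3 without those 2 libraries), where 30.9% and 24.01% of the genes tested did. Each r rests on 11 antennal or 12 proboscis libraries that differ in depth.

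Members with consecutive identifiers were looked at after their values were seen. There were 8 runs with 17 members, or 13.9% of the set, and the longest held 3. The like share over all genes is not given here, so nothing is read from this count. Whether consecutive numbers are neighbours in the genome is not given in the sources used here. Over the 9 pairs the median r was 0.826 in antennae, 0.663 in proboscis (0.640 without the libraries of male 2 and female 1) and 0.425 in legs, against 0.166, 0.321 and 0.302 over consecutive genes among those tested. DPOGS208534 and DPOGS208535, both among the 10 genes with both ratios at 50 or above, had r = 0.888 in antennae and 0.998 in proboscis, with or without the libraries of male 2 and female 1, and means of 158 and 119 CPM in antennae and 68.4 and 47.2 CPM in proboscis. These proboscis means came mostly from 1 library of each sex. DPOGS208534 reached 306 CPM in females (mean 53.3) and 387 CPM in males (mean 83.5). DPOGS208535 reached 208 CPM in females (mean 36.3) and 258 CPM in males (mean 58.2). The lowest proboscis value of both genes was 0 in either sex. DPOGS201225 and DPOGS201226 went opposite ways, with r = −0.552 in antennae and −0.586 in proboscis (−0.665 without those 2 libraries), and the ratio of the first to the second ran from 0.165 to 109 over the antennal libraries. The pairs were thus far from uniform, and reads that fit both genes of a pair were not examined.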

How the data were processed

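Messenger RNA libraries were made with a strand-specific Illumina kit from 100 ng of total RNA, per the labels' protocols. The deposited table holds whole-number read counts for each gene, left unscaled by the authors. The tools behind them, per the submitters' processing notes, include HISAT2 2.0.5, featureCounts 1.5.2, FastQC 0.11.5 and limma. Build, annotation, strand setting and the handling of multiply mapped reads are not stated in what was used, so near-identical or overlapping genes are uncertain.

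CPM were computed from the deposited counts on library totals. Tests used edgeR 4.0.16 in R 4.3.3 (glmQLFit, glmQLFTest, TMM factors, filterByExpr) within each tissue with sex and batch as terms, and over the 6 groups of sex and tissue with batch for the leg deficit. Calls were made at an adjusted p below 0.05 (Benjamini-Hochberg over all genes tested). Alternatives were DESeq2 1.42.0, other scalings, no filter, each animal left out and the animal as a block. The code was tested on simulated data.

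Replicates are different animals. Deviations from group means correlated between tissues of the same animal with a median r of 0.167 for antennae and legs, 0.224 for antennae and proboscis and 0.369 for legs and proboscis; the labels give the animal, so tissues are paired. Libraries within a group all differed by more than counting noise, with a chi-square per gene of at least 27.8.

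The members and the lists were chosen with earlier results of these data known. Genes are named by rules: at most 2 with the highest level, largest ratio, strongest lean to either tissue, nearest position to the threshold on each side, smallest adjusted p in each direction among calls, or, without calls, the smallest p. With 0 identifiers matched to the name table (assembly MEX_DaPlex), lists of gene families and cell type markers could not be applied.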

Additional observations from a re-analysis of the deposited data

Results flagged for a closer look

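Of 20 groups of 4 to 10 libraries examined, 3 held a library far from the others by Dixon's criterion. Chance meets it in about 1 group in 20 where values are normally distributed and groups are chosen beforehand. Here CPM were used without a log scale, and most groups belonged to genes chosen by their p in these data. The count of 3 is therefore not read against that rate. DPOGS213996 was at 1030 CPM in the antennae of female 27, where the other 5 females had 2.06 to 38.6 CPM. DPOGS203698 was at 2.32 CPM in the legs of male 12, where the other 5 males had 0.158 to 0.393 CPM. DPOGS200907 was at 0.775 CPM in the legs of female 25, where the other 5 animals of batch 1 had 0 to 0.216 CPM.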

How the results depend on the processing

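The rule took 122 genes. With a fold of at least 3 it took 210 and with a fold of at least 8 it took 37. With TMM-scaled library sizes it took 79, of which 78 were among the 122. With each animal left out it took 110 to 132 genes, and 67 of the 122 were taken in all 12 cases. Without the proboscis libraries of male 2 and female 1, a choice made after the data were seen, it took 117, of which 113 were among the 122. The members' median log2 ratio of antennae to legs, 4.33, was 3.65 with TMM, 3.78 with relative log expression and 3.80 with upper-quartile scaling, all of which moved the median of the genes tested to near 0; that of proboscis to legs, 2.93, was 2.70 with TMM. With each animal left out these medians ran from 4.34 to 4.45 and from 2.87 to 3.01. The 0 members called between the batches in antennae became 1 with DESeq2, DPOGS201162 at an adjusted p of 0.045; it was named after its values were seen, edgeR gave it an adjusted p of 0.44, and the cause was not tested. Members called between the batches in legs were 35, 34 without the count filter, 44 with DESeq2 and 30 to 42 with each animal left out. The call of DPOGS200907 was also lost without the count filter, at an adjusted p of 0.0667. With the animal as a replicate block, the number of members with a leg deficit that differed between the sexes was 0, as without it. All other counts of calls between the sexes, between the batches in antennae and proboscis, and for the leg deficit were 0 under every alternative run. Leaving out male 2 could not be run in antennae, where it had no library. The antennal libraries were the shallowest and limit what can be said of members at a few CPM there.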
